A study of Carassius auratus with 10 samples.

Results

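Matrix proteases, their inhibitors and lysyl oxidases were followed in the transcriptome of cultured goldfish radial glial cells (RGCs). A gene counted as a member when the first word of its annotated gene name began with *mmp*, *timp* or *adam* and a number, with *adamts* or with *lox*. This rule found 56 of 17474 gene names, on 166 of the 170956 unigenes with reads. A unigene is a cluster of assembled transcripts that takes its name from the most similar known protein. The rule used names only and no measured value, but the members were chosen with earlier results of these data known.

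The cells were primary cultures from the hypothalamus and telencephalon of adult female goldfish, grown in L-15 medium with fetal bovine serum and used after 3 passages. They were left untreated, exposed to 1000 nM secretoneurin A (SNa), a peptide cut from a secretogranin II precursor, or exposed to 10 µM SKF, which acts on the dopamine D1 receptor, for 24 h. The labels name 4 control, 3 SNa and 3 SKF cultures, whereas the study's methods speak of 3 controls, and the same controls served both comparisons. Of the 4 controls, 1 has a title of another form than the plain numbered titles of all other cultures. Which cultures make up the control pool is not stated. Only 1 value per group was given for each unigene, so each group is described as a pool with no SD, no test and no replicate check. The pools held 147886694 control, 64778968 SNa and 86711702 SKF reads.

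The extracellular matrix is remodeled by several families of zinc-dependent proteases. Matrix metalloproteinases (MMPs) cut collagens and other matrix proteins and are held in check by the tissue inhibitors of metalloproteinases (TIMPs). ADAMs mostly shed the outer parts of membrane proteins such as growth factor precursors and Notch, and ADAMTS enzymes trim procollagens or cut proteoglycans. Lysyl oxidases act in the other direction and cross-link collagen and elastin. In the fish brain RGCs line the ventricles, act as progenitors and reach the outer surface with their processes, so matrix turnover is part of their surroundings.

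Levels are given as reads per 1000000 reads of a pool (rpm). Reads were not divided by transcript length, so a level is compared between pools and not between genes. A fold-change is the ratio of the authors' normalized values, and its interval in parentheses is a 95% exact binomial interval that covers counting error only, not the spread between cultures. A member was called higher or lower when its log2 ratio passed 0.5 or -0.5, a 1.41-fold difference, with a mean normalized value of at least 10.

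Matrix proteases and their partners took a larger share of both treated pools. The 56 members held 0.508% of the control reads, 0.717% of the SNa reads and 0.753% of the SKF reads. Relative to the controls, 17 of the 50 members that passed the filter were higher with SNa and 6 were lower. Over all 15900 names the shares were 12.4% higher and 14.5% lower. With SKF, 25 of 51 members were higher and 2 were lower, against 16.7% and 14.6% of 16080 names. The median log2 ratio of the members was 0.42 with SNa and 0.49 with SKF, beside 0.01 and 0.04 for all names. With SNa the filter left out 6 members, and with SKF it left out 5, so these counts do not cover all 56. In such pools, fewer cells of a type and less RNA per cell cannot be told apart.

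**Figure D1:**
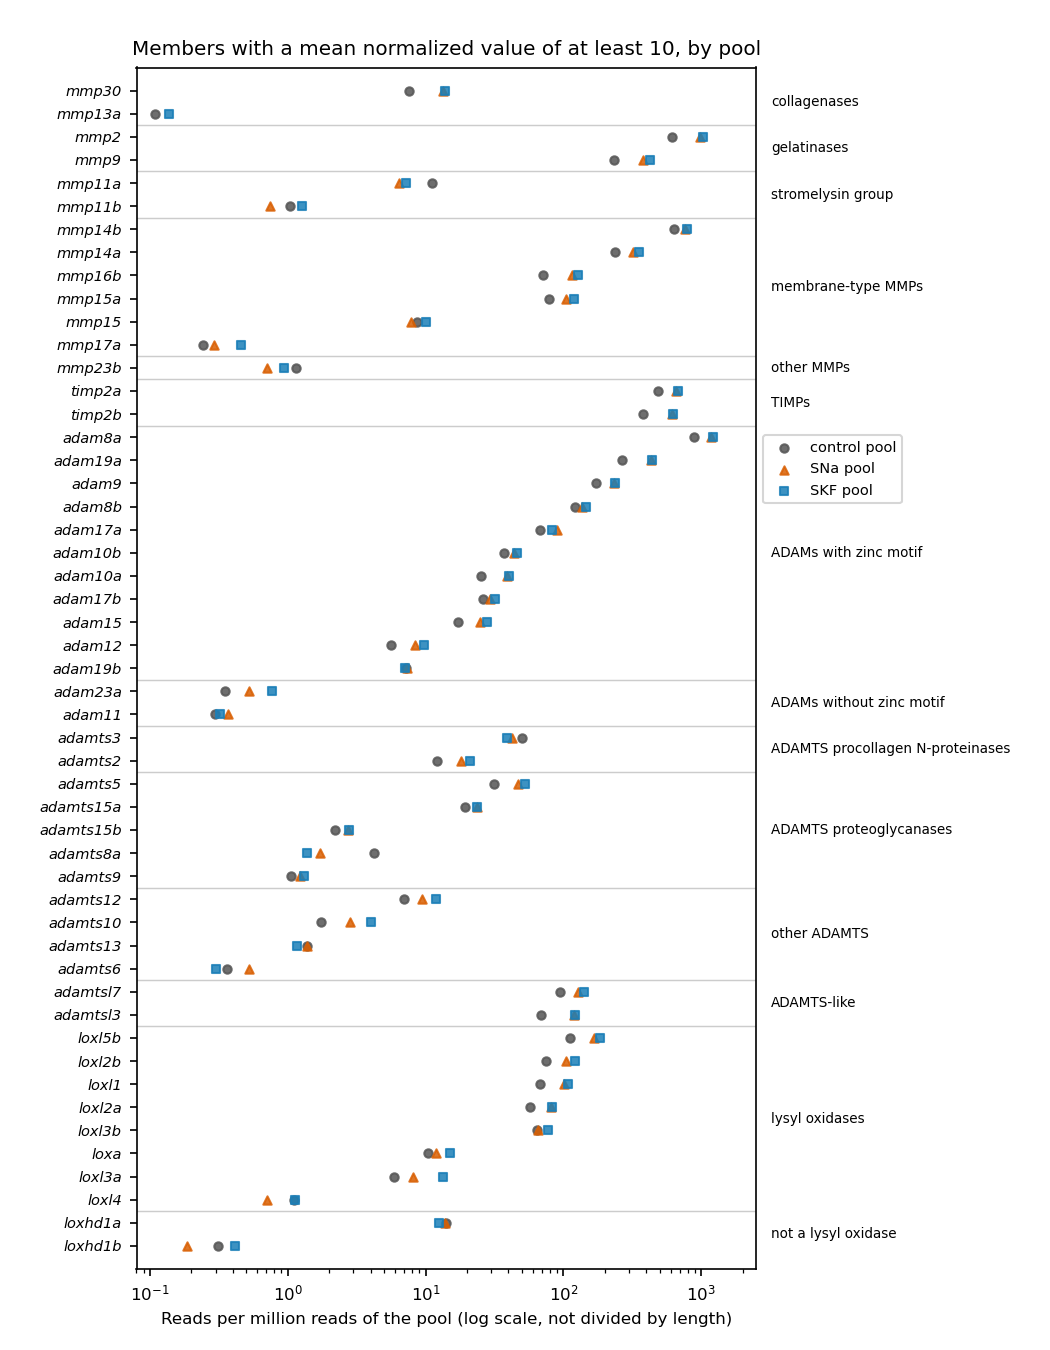
Levels in rpm in the control (circles), SNa (triangles) and SKF (squares) pools on a log axis, with members grouped by role; each point is 1 pool and has no error bar. Triangles and squares lie right of the circles for most members above 10 rpm. Members such as *adamts3* (50.5 rpm in the control pool), *mmp11a* (11.1 rpm) and *adamts8a* (4.23 rpm) show the opposite order.

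The differences were modest in size. Beyond a log2 ratio of 1, no member was higher with SNa, beside 2.02% of all names, and only *adamts8a* was lower, beside 5.72%. With SKF, *loxl3a*, *adamts10* and *adam23a* were higher by this rule, beside 3.17% of all names, and *adamts8a* alone was lower, beside 5.16%. The *adam23a* value rested on few reads, mostly of unigenes from stretches of neighbouring unigene numbers with high medians, as given below. The counting interval lay wholly above 0 for 31 of 50 members with SNa, beside 28.1% of all names, and for 35 of 51 with SKF, beside 33.4%. It lay wholly below 0 for 4 members in each comparison, beside 27.9% and 28.1% of all names. Among members with a mean normalized value of at least 1000, 13 of 31 were higher with SNa and 21 of 35 with SKF. The shares of all names at that level were 7.55% and 11.3%.

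**Figure D2:**
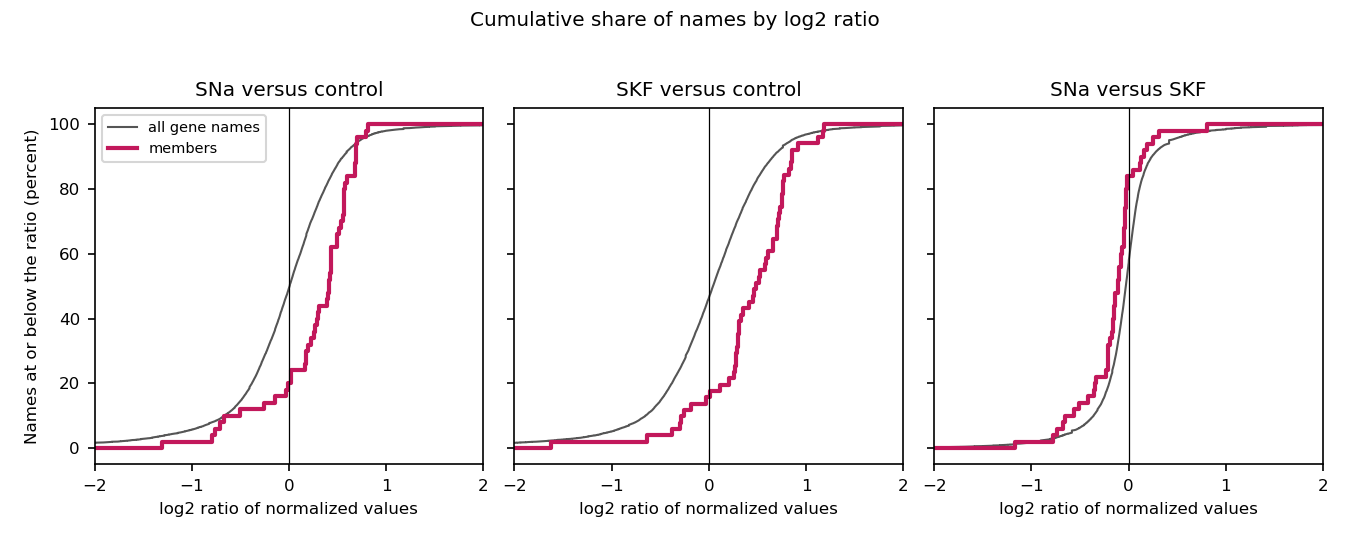
Cumulative percent of names (vertical axis) at or below a log2 ratio (horizontal axis, clipped at -2 and 2) for all gene names and for the members, in the 3 comparisons. The member curve lies to the right of all names in both comparisons with the controls, with medians of 0.42 and 0.49, and slightly to the left for SNa versus SKF, with a median of -0.11.

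The gelatinases, which cut denatured collagen and basement membrane collagen, were among the members with many reads. *mmp2* had 611 rpm in the control pool, 985 rpm in the SNa pool and 1039 rpm in the SKF pool. Its normalized value was 1.60-fold (1.58 to 1.62) that of the controls with SNa and 1.69-fold (1.67 to 1.71) with SKF. *mmp9* had 233, 380 and 423 rpm in the same order. Its fold-changes were 1.62 (1.58 to 1.65) with SNa and 1.80 (1.77 to 1.84) with SKF. Each gelatinase stood on 1 unigene, matched along 657 residues at 90.9% identity for *mmp2* and along 680 residues at 82.9% for *mmp9*. Both were thus high in both treated pools. With SNa, *mmp2* was at 0.946-fold (0.932 to 0.959) and *mmp9* at 0.896-fold (0.875 to 0.916) of the SKF value. Both differences lay beyond counting error.

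Collagenases cut fibrillar collagen. *mmp30*, grouped here with the collagenases, had 7.61 rpm in the control pool, 13.5 rpm in the SNa pool and 13.9 rpm in the SKF pool, or 1.75-fold (1.54 to 1.99) and 1.81-fold (1.61 to 2.04) the control value. *mmp13a* was near the limit of detection, with 0.108 rpm in the control pool, no reads in the SNa pool and 0.138 rpm in the SKF pool. A count of 0 allows up to 3 fragments, or 6 reads, which is 0.0926 rpm in the SNa pool.

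Membrane-type MMPs are anchored at the cell surface, and MMP14 together with TIMP2 activates the precursor of MMP2 in mammals. *mmp14b* had 634, 769 and 787 rpm in the control, SNa and SKF pools. Its fold-changes of 1.20 (1.18 to 1.22) and 1.23 (1.22 to 1.25) stayed under the threshold in both comparisons. *mmp14a* had 237, 322 and 354 rpm, or 1.35-fold and 1.49-fold the control value, and passed the threshold with SKF. *mmp16b* had 71.3, 116 and 128 rpm and passed it in both, with fold-changes of 1.62 (1.55 to 1.69) and 1.79 (1.72 to 1.86). *mmp15a* had 78.3, 104 and 120 rpm and passed with SKF at 1.53-fold. *mmp15*, a separate name for the same kind of protease, had 8.64, 7.90 and 10.0 rpm and passed in neither. *mmp17a*, at 0.243, 0.293 and 0.461 rpm, passed with SKF at 1.89-fold, but its interval reached from 0.947 to 3.78. *mmp24* had 4 control reads, none in the SNa pool and 6 in the SKF pool, and was left without a ratio. Of 6 members of this role that passed the filter, 1 was higher with SNa, 4 were higher with SKF and none was lower. The shares of higher names over all were 12.4% and 16.7%, so the single member with SNa lay near the background.

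*mmp11a*, a stromelysin that in mammals is made by stromal cells and is activated inside the cell by furin, went the other way. It had 11.1 rpm in the control pool, 6.47 rpm in the SNa pool and 7.18 rpm in the SKF pool. Its value was 0.579-fold (0.496 to 0.676) that of the controls with SNa and 0.645-fold (0.565 to 0.736) with SKF. *mmp11b* had 1.04, 0.741 and 1.27 rpm, and its interval included the control value in both comparisons. *mmp23b*, an MMP with an unusual membrane anchor at its start, had 1.15, 0.710 and 0.946 rpm and was 0.613-fold (0.369 to 0.981) the control with SNa. *mmp28* had 2, 0 and 6 reads.

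Both TIMP members were TIMP2 copies. Each lay above its control value in both treated pools, but only *timp2b* passed the threshold. *timp2b* had 377, 618 and 629 rpm in the control, SNa and SKF pools, or 1.63-fold (1.60 to 1.66) and 1.66-fold (1.63 to 1.69) the control value. *timp2a* had 483, 659 and 679 rpm, or 1.35-fold (1.33 to 1.38) and 1.40-fold (1.38 to 1.42), just under the threshold. Of its 3 unigenes, 2 matched the protein at 95.9% identity and 1 (unigene 15496) at only 39.7%. That unigene had log2 ratios of 0.16 and 0.38, so the sum under this name joined unigenes of unlike match. Across the 3 unigenes the ratios spanned 0.16 to 0.77 with SNa and 0.38 to 0.77 with SKF, beside 0.70 and 0.73 for *timp2b*. The place of *timp2a* under the threshold, and its contrast with *timp2b*, are therefore stated for this sum only.

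Ratios of protease to inhibitor reads within a pool need no scaling between pools. All MMP members together had 2.20 reads per TIMP read in the control pool (2.18 to 2.22), 2.12 in the SNa pool (2.09 to 2.14) and 2.20 in the SKF pool (2.18 to 2.23). Without unigene 15496 the ratios were 2.47 (2.44 to 2.49), 2.30 (2.28 to 2.33) and 2.43 (2.40 to 2.45), and in both sums the SNa interval lay below that of the controls. *mmp14b* had 1.68 reads per *timp2b* read in the control pool, 1.24 in the SNa pool and 1.25 in the SKF pool. *mmp2* had 0.963 reads for each *mmp14b* read in the control pool, 1.28 in the SNa pool and 1.32 in the SKF pool, and these intervals did not overlap between control and treated pools. The ratio of *timp2a* to *timp2b* reads was 1.28 in the control pool and 1.07 and 1.08 in the treated pools. With the same unigene left out it was 1.04, 0.900 and 0.889.

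ADAMs with the zinc-binding motif of an active protease made up 32.0% of the member reads in the control pool, 31.1% in the SNa pool and 30.5% in the SKF pool. *adam8a*, whose mammalian counterpart is best known from leukocytes, had the most reads of any member, with 881, 1182 and 1221 rpm. Its fold-changes were 1.33 (1.32 to 1.35) with SNa and 1.38 (1.36 to 1.39) with SKF, under the threshold. *adam19a*, a meltrin whose mammalian counterpart sheds neuregulin, had 266, 433 and 442 rpm and passed in both comparisons, with fold-changes of 1.62 (1.58 to 1.65) and 1.66 (1.62 to 1.69). *adam12*, also a meltrin, had 5.64, 8.40 and 9.69 rpm and passed in both, at 1.48-fold (1.26 to 1.72) and 1.71-fold (1.49 to 1.96). This sum joined unlike unigenes. Those with 200 reads or more had log2 ratios from 0.14 to 1.24 with SNa and from 0.08 to 1.41 with SKF. *adam9* had 172, 234 and 238 rpm, or 1.34-fold and 1.38-fold, and passed in neither.

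The main sheddases of Notch and of tumor necrosis factor are ADAM10 and ADAM17. *adam10a* had 25.5, 38.9 and 40.5 rpm in the control, SNa and SKF pools and passed in both comparisons, at 1.51-fold (1.41 to 1.63) and 1.58-fold (1.48 to 1.69). *adam10b* had 37.1, 43.8 and 46.3 rpm, and its fold-changes of 1.17 and 1.24 stayed under the threshold. The a copy thus took 40.7% of the reads of both copies in the control pool, 47.0% in the SNa pool and 46.7% in the SKF pool. Unigene 80566 of *adam10a* had log2 ratios of 0.82 and 0.92, and its unigene 129335 had 0.28 and 0.29. The 2 names differed by 0.37 with SNa and 0.35 with SKF. Unigenes within a name spanned more, with 0.54 and 0.63 for *adam10a* and 0.74 and 0.65 for *adam10b*. *adam17a* had 67.4, 90.1 and 82.95 rpm and *adam17b* had 26.1, 29.6 and 31.9 rpm, and neither passed. *adam15* passed in both, at 17.1, 24.9 and 27.9 rpm.

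The remaining ADAMs differed little or had few reads. *adam8b* had 121, 137 and 146 rpm and *adam19b* had 7.17, 7.33 and 7.08 rpm. *adam19a* and *adam19b* differed from each other by 0.67 on the log2 scale with SNa and by 0.75 with SKF. Most *adam19b* reads (899, 380 and 503) came from unigene 87793, which matched the protein along only 37 residues. Unigene 25925, the next in reads, matched along 33 residues. Whether these short matches belong to *adam19b* was not tested, so the difference cannot be read as one between gene copies. *adam23a*, which has no protease motif and serves as a cell adhesion protein, had 0.352, 0.525 and 0.773 rpm. Its 2.19-fold value with SKF rested on 52 control and 67 SKF reads (1.29 to 3.85). With SKF, its unigenes 89276 and 101851 had log2 ratios of 1.08 and 1.93. They lay in stretches of neighbouring unigene numbers with medians of 0.93 and 1.03. Unigene 91373 had no control reads and lay in a stretch with a median of 1.05. Unigene 39705 had 0.18, in a stretch with a median of -0.71. The *adam23a* value is therefore stated for this sum only. *adam11*, which also has no protease motif, had 0.298, 0.370 and 0.323 rpm.

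**Figure D3:**
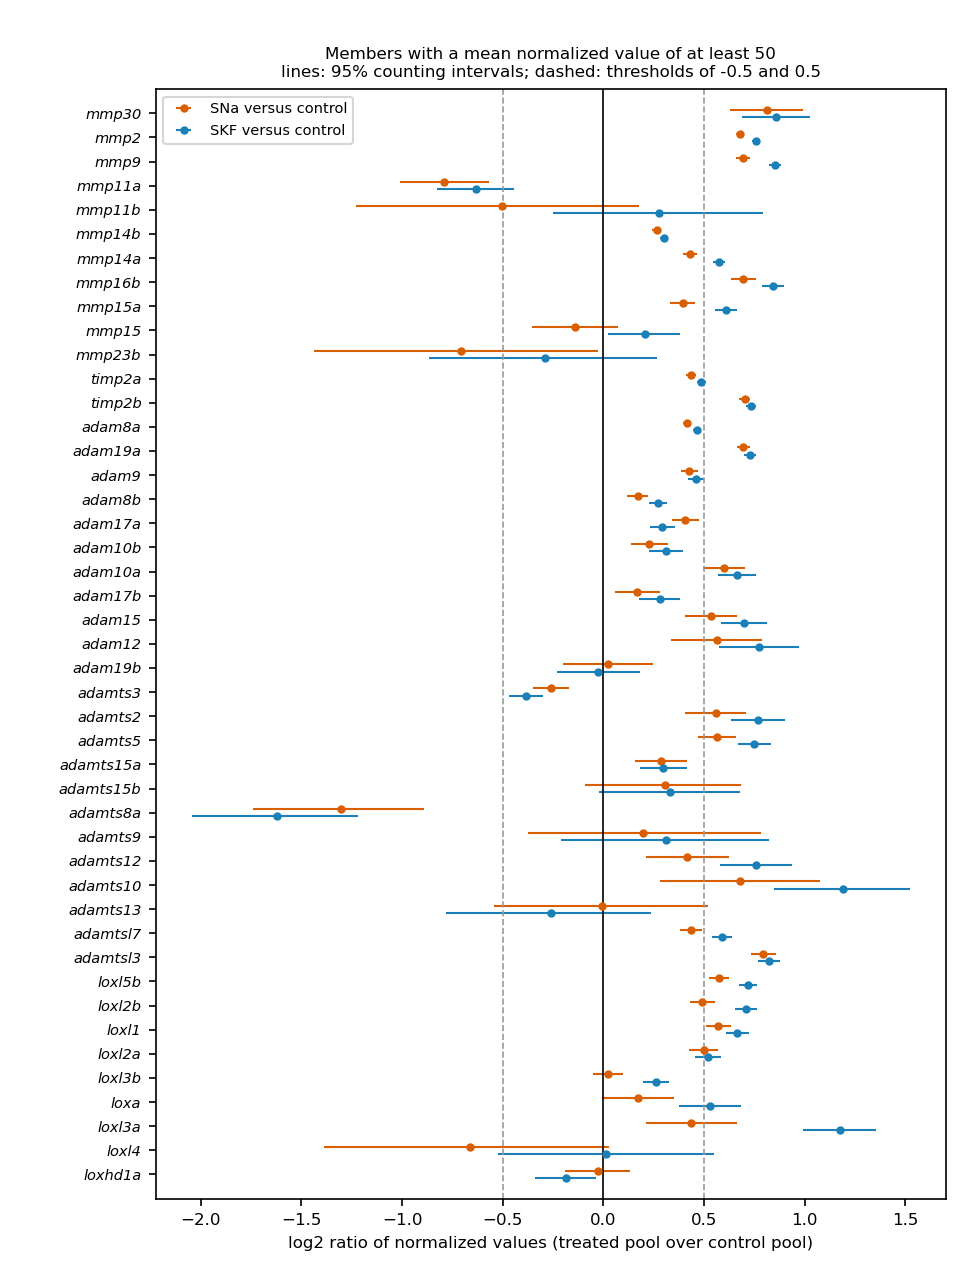
Log2 ratio of each treated pool to the control pool (horizontal axis) for members with a mean normalized value of at least 50, with 95% counting intervals as lines and the thresholds of -0.5 and 0.5 dashed. Most points lie between 0 and 0.9, *adamts8a* and *mmp11a* lie below -0.5 in both comparisons, and *loxl3a* reaches 1.17 with SKF.

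ADAMTS enzymes that release the N-terminal propeptide of procollagen gave opposite values. *adamts2* had 12.2 rpm in the control pool, 18.1 rpm in the SNa pool and 20.9 rpm in the SKF pool, or 1.47-fold (1.33 to 1.64) and 1.70-fold (1.55 to 1.87). *adamts3* had 50.5, 42.6 and 38.9 rpm, or 0.836-fold (0.785 to 0.890) and 0.767-fold (0.724 to 0.812). This sum of *adamts3* hid unigenes that lay far apart. Unigene 86910 had 2398, 319 and 443 reads and a log2 ratio of -1.73 with SNa, whereas unigene 86909, matched to most of the same protein at 93.5% identity, had 663, 465 and 582 reads and a log2 ratio of 0.67.

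Proteoglycan-cutting ADAMTS members included one of the clearest low values. *adamts8a* had 4.23 rpm in the control pool, 1.73 rpm in the SNa pool and 1.38 rpm in the SKF pool, or 0.405-fold (0.299 to 0.540) and 0.325-fold (0.243 to 0.430). Both of its unigenes with 200 reads or more were low, with log2 ratios of -1.23 and -1.32 with SNa. *adamts5*, the main aggrecanase of mouse cartilage, had 31.4, 46.8 and 53.1 rpm, or 1.48-fold (1.38 to 1.58) and 1.68-fold (1.59 to 1.78). *adamts15a* had 19.3, 23.7 and 23.8 rpm and stayed under the threshold. *adamts15b* and *adamts9* also passed in neither comparison.

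The other ADAMTS members had few reads. *adamts10*, which in mammals acts on fibrillin microfibrils, had 1.75, 2.82 and 4.01 rpm in the control, SNa and SKF pools, or 1.60-fold (1.21 to 2.11) and 2.28-fold (1.80 to 2.87). *adamts12* had 7.04, 9.48 and 11.96 rpm and passed with SKF at 1.69-fold (1.49 to 1.91). *adamts13*, which trims von Willebrand factor, had 1.39, 1.39 and 1.16 rpm. *adamts6* and *adamts18* had at most 54 reads in any pool.

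ADAMTS-like proteins lack the protease part and bind matrix. *adamtsl3* had 68.6, 120 and 122 rpm and passed in both comparisons, at 1.74-fold (1.66 to 1.81) and 1.77-fold (1.70 to 1.84). *adamtsl7* had 94.2, 129 and 142 rpm and passed with SKF at 1.50-fold (1.45 to 1.56). *adamtsl2* had 18 control reads and 2 or fewer in each treated pool, and *adamtsl5* had at most 4 reads.

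Of the 8 lysyl oxidases, 2 were higher and 1 (*loxl4*) was lower with SNa, beside 12.4% and 14.5% of all names, and 6 were higher and none was lower with SKF, beside 16.7% and 14.6%. *loxl5b* had 111 rpm in the control pool, 167 rpm in the SNa pool and 184 rpm in the SKF pool, or 1.49-fold (1.44 to 1.54) and 1.64-fold (1.59 to 1.69). *loxl1*, which in mice is needed for elastic fibers, had 67.9, 102 and 108 rpm, or 1.49-fold (1.42 to 1.55) and 1.59-fold (1.52 to 1.65). Both passed in both comparisons. *loxl2b* had 74.3, 105 and 122 rpm and *loxl2a* had 57.4, 81.7 and 82.6 rpm. Their log2 ratios of 0.49 and 0.50 with SNa lay at or just under the threshold, and 0.71 and 0.52 with SKF lay past it. LOXL2 cross-links basement membrane collagen in mammals.

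By the sums of the naming rule, *loxl3a* had the largest difference between the treatments among the 8 lysyl oxidases. Its log2 ratio for SNa versus SKF was -0.74, beside -0.67 for *loxl4*. With 1 unigene that carries this name only inside the protein name, *loxl4* came to -0.88. *loxl3a* had 5.92 rpm in the control pool, 8.07 rpm in the SNa pool and 13.4 rpm in the SKF pool. The fold-changes were 1.35 (1.16 to 1.58) with SNa and 2.26 (1.99 to 2.56) with SKF, and both unigenes of the name were higher with SKF, with log2 ratios of 1.33 and 0.93. They lay in stretches of unigene numbers with SKF medians of -0.10 and 0.90, in the same order. Its partner *loxl3b* had 63.9, 65.5 and 77.0 rpm. *loxl3a* thus took 8.47% of the reads of the pair in the control pool, 10.98% in the SNa pool and 14.9% in the SKF pool. The 2 names differed by 0.41 on the log2 scale with SNa and by 0.91 with SKF. Unigenes of 200 reads or more spanned 0.36 and 0.40 within *loxl3a*, and 0.79 and 0.65 within *loxl3b*. *loxa*, the founding lysyl oxidase of the family, had 10.4, 11.9 and 15.2 rpm and passed with SKF at 1.44-fold (1.30 to 1.60). *loxl4* had 1.12, 0.710 and 1.13 rpm, and its interval with SNa, 0.382 to 1.02, included 1.

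The pattern of names also caught *loxhd1a* and *loxhd1b*, which are no lysyl oxidases but relatives of a protein of inner ear hair cells. *loxhd1a* had 14.1, 13.96 and 12.5 rpm, and *loxhd1b* had at most 46 reads in any pool.

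SNa and SKF were also set against each other, with the control pool left out of the ratio. The control reads cancel here, although each treated pool was normalized in a table of its own. Of 50 members, 1 was higher with SNa and 7 were lower, against 4.23% and 6.37% of 15760 names. The member median was -0.11, beside -0.03 for all names. Ratios lay below 0 for 42 of 50 members (84.0%), beside 57.0% of all names. When the pools were scaled by TMM factors, 34 of 50 members lay below 0, and the 57.0% does not apply there. The medians were then -0.07 for the members and 0.01 for all names. The counting interval lay wholly below 0 for 25 members, beside 14.9% of all names, wholly above it for 2, beside 6.99%, and included it for 23.

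Ratios of all 8 lysyl oxidases and all 6 membrane-type MMPs that passed the filter lay below 0, beside 57.0% of all names. Under TMM scaling, where the median of all names was 0.01, 7 of 8 and 5 of 6 did. Only 2 lysyl oxidases (*loxl3a* and *loxl4*) and 1 membrane-type MMP (*mmp17a*) passed the threshold of -0.5, beside 6.37% of all names. The intervals of *loxl4* (46 and 98 reads, 0.364 to 1.05) and *mmp17a* (19 and 40 reads, 0.279 to 1.49) included 1. Joined with unigenes that carry these names only inside the protein name, their log2 ratios were -0.88 (-1.60 to -0.20) and -0.10 (-0.94 to 0.71). *loxl3a* was at 0.600-fold (0.517 to 0.696) of its SKF value with SNa. *loxa* was at 0.781-fold (0.686 to 0.886) and *adamts10* at 0.702-fold (0.542 to 0.914). *mmp9* was at 0.896-fold (0.875 to 0.916). For *timp2b* the ratio was 0.979 (0.961 to 0.997) and for *adam19a* 0.977 (0.956 to 0.999), so these stayed within a few percent of each other. *adam17a*, at 1.08-fold (1.03 to 1.14), and *adamts3* were the members with the whole interval above 0. Beyond a log2 ratio of -1 stood only *loxhd1b*, with 12 and 36 reads, beside 1.76% of all names. The single member called higher, *adamts6*, rested on 34 and 26 reads, and its interval from 0.798 to 3.91 included 1. Joined with 6 unigenes that carry this name only inside the protein name, it had 74 and 150 reads and a log2 ratio of -0.60 (-1.21 to -0.02), the opposite direction.

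**Figure D4:**
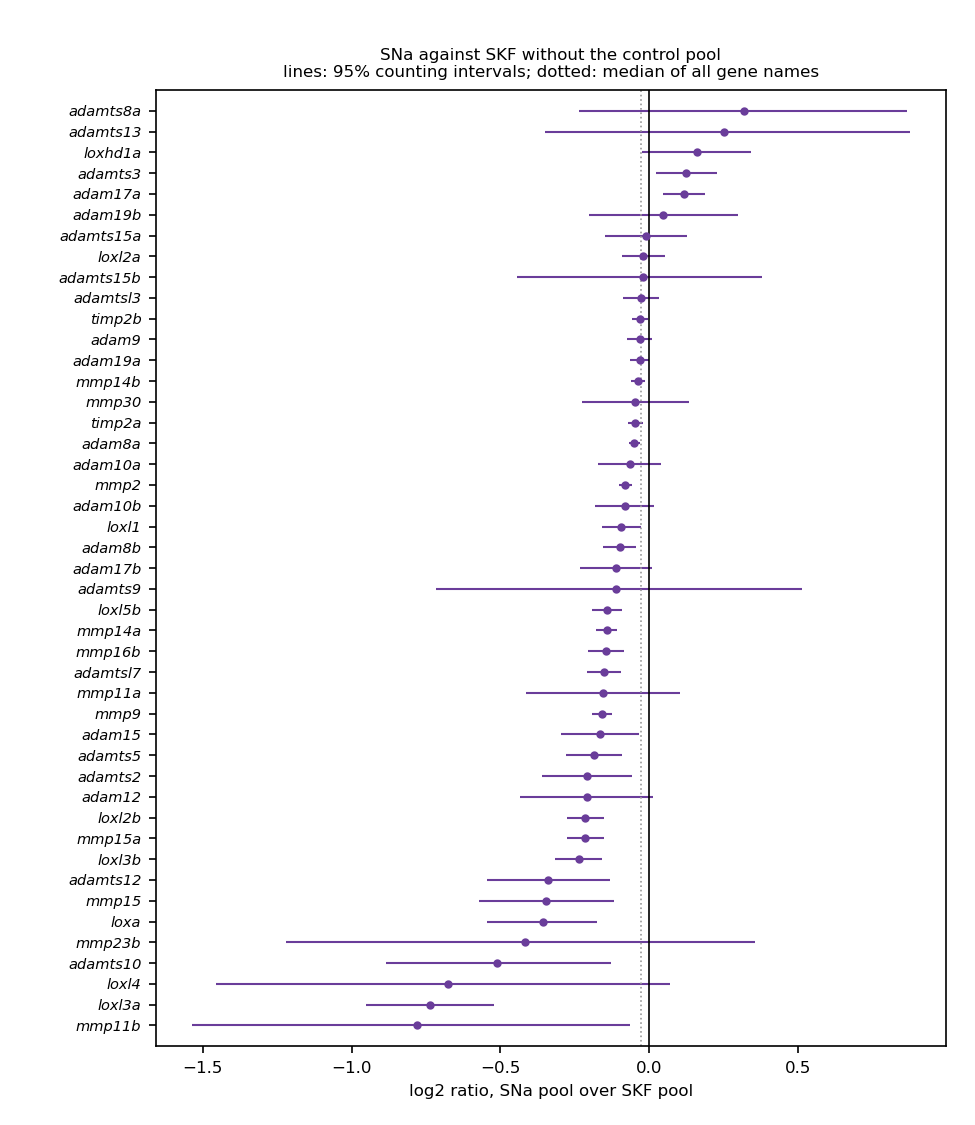
Log2 ratio of the SNa pool to the SKF pool (horizontal axis) for members with a mean normalized value of at least 50, ordered by the ratio, with 95% counting intervals as lines and the median of all gene names, -0.03, dotted. *loxl3a* at -0.74 has the lowest ratio among members whose interval is narrow, and *timp2b*, *adam19a* and *mmp14b* lie next to the dotted line.

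Unigenes that shared a name did not always share a direction. Of the members, 21 stood on 1 unigene and 35 on several, up to 10, with a median identity of 88.0% to the matched protein. For 23 names with at least 2 unigenes of 200 reads or more, the log2 ratios of the unigenes spanned a median of 0.54 with SNa and 0.40 with SKF, and more than 1 for 3 names in each comparison. Besides *adamts3* and *adam12*, *mmp11a* was such a name. Its unigene 17725 had 1329, 240 and 357 reads and log2 ratios of -1.29 and -1.13, while unigene 76270, matched along the same residues at a similar identity, had 311, 179 and 266 reads and log2 ratios of 0.38 and 0.54. The low value of *mmp11a* therefore came from 1 of its 2 unigenes. For *adam10b*, unigene 135523 had log2 ratios of 0.04 and 0.14 and unigene 80043 had 0.78 and 0.79. Goldfish carry extra gene copies from a genome duplication of their lineage, and copies, alleles and splice forms cannot be told apart here.

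**Figure D5:**
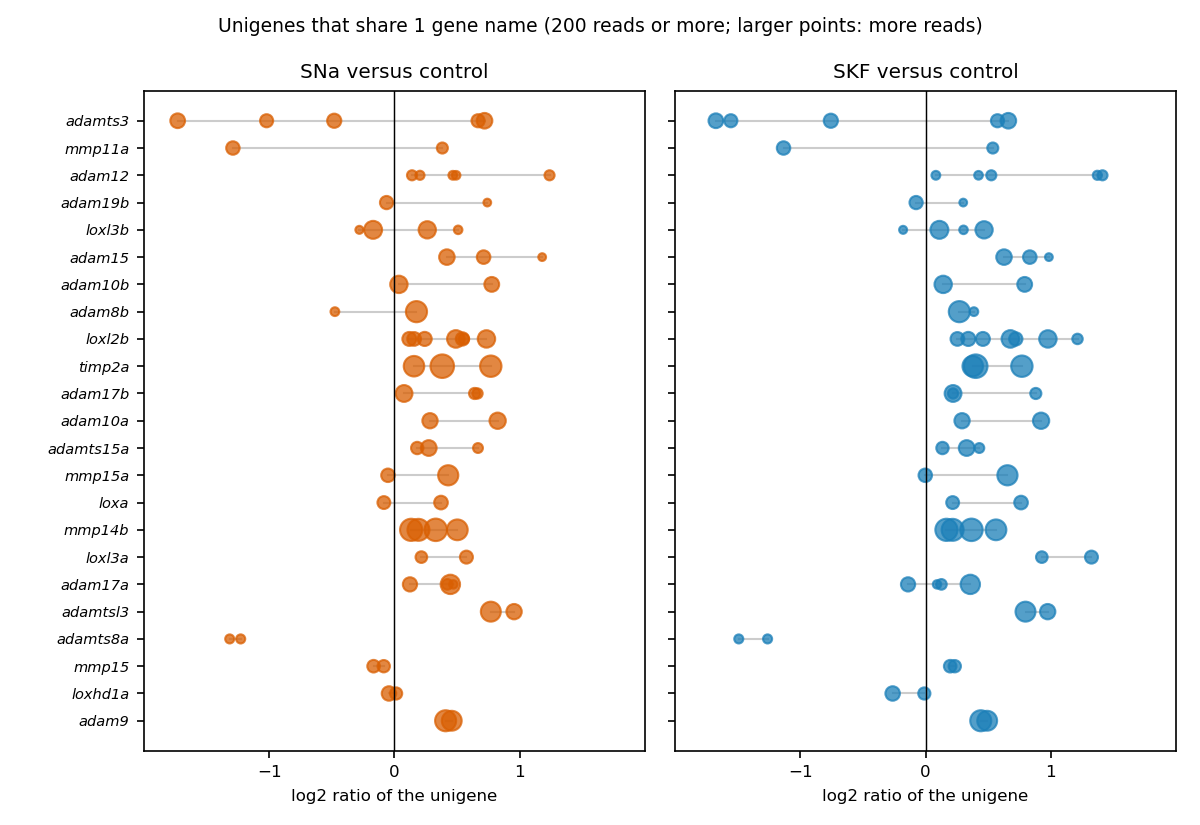
Log2 ratio to the control pool (horizontal axis) of each unigene with at least 200 reads, for the 23 names that have at least 2 such unigenes; larger points hold more reads, and grey lines join the unigenes of a name. *adamts3* and *mmp11a* have unigenes on both sides of 0 in both comparisons, whereas both unigenes of *adamts8a* lie below -1.

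Other genes of matrix turnover, taken from a list of proteases, inhibitors and collagen-modifying enzymes, gave similar numbers. Of 35 such genes that passed the filter, 15 were higher and none was lower with SNa, with a median log2 ratio of 0.45, beside 12.4% higher and 14.5% lower of all names. With SKF, 17 were higher and none was lower, with a median of 0.50, beside 16.7% and 14.6%. *plaua*, the urokinase-type plasminogen activator, had log2 ratios of 0.79 and 0.58, and *plat*, the tissue-type activator, -0.31 and -0.09. *furina*, which activates membrane-type MMPs, had 31.5, 53.2 and 65.6 rpm, or log2 ratios of 0.75 and 1.05. *reck*, a membrane-bound MMP inhibitor, had 0.45 and 0.69. *plod2*, a lysyl hydroxylase that prepares collagen for cross-linking, had 340, 544 and 594 rpm, or 0.67 and 0.80.

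Several lists of cell type markers also differed between the pools. The fibroblast markers, of which 12 of 13 were found, summed to 16168 rpm in the control pool, 25576 rpm in the SNa pool and 26383 rpm in the SKF pool. Of those that passed the filter, 8 of 11 were higher with SNa and 8 of 12 with SKF, beside 12.4% and 16.7% of all names. Among these, *twist1b* alone lay below 0, at log2 ratios of -0.35 and -0.21. The radial glia markers, 9 of 11 found, summed to 7216, 4100 and 4062 rpm. Of these, 7 of 9 were lower in each treated pool, beside 14.5% and 14.6% of all names. The log2 ratios of *gfap* were -0.53 and -0.58. The study's methods describe most cells of these cultures as holding both the *gfap* protein and brain lipid binding protein. *gfap* had 1622, 1134 and 1092 rpm and *vim* 3697, 2311 and 2318 rpm. The brain lipid binding proteins differed far more, with *fabp7a* at 303, 10.0 and 10.6 rpm, or log2 ratios of -4.93 and -4.84, and *fabp7b* at 699, 151 and 165 rpm, or -2.22 and -2.09. The glutamate transporter *slc1a3b* had log2 ratios of -3.13 in both comparisons, and *nes* alone lay above 0, at 0.50 and 0.28. *cyp19a1b* and *slc1a3a* were not found under these names. Mural cell markers (8 of 9 found) summed to 3507, 5503 and 5098 rpm, of which *acta2* held most, and *cspg4* had no control reads. This list was split, since *rgs5b* had 116, 36.8 and 48.8 rpm, or log2 ratios of -1.67 and -1.26. Of 6 mural markers that passed the filter in each comparison, 4 were higher and 1 was lower with SNa, and 5 and 1 with SKF. The shares of all names were 12.4% and 14.5% with SNa, and 16.7% and 14.6% with SKF. Macrophage markers (5 of 13 found) summed to 621, 682 and 618 rpm, nearly all of it *apoeb*. Of 4 that passed the filter, *coro1a* and *ptprc* were higher with SNa and *ptprc* alone with SKF. None of these was lower. The same shares of all names apply to this list and to those that follow. Endothelial markers (4 of 11) summed to 109, 103 and 101 rpm and neuronal markers (7 of 10) to 28.7, 26.1 and 27.3 rpm. Of 3 endothelial markers that passed the filter, 1 was higher with SNa, none was higher with SKF and none was lower. Of 5 neuronal markers that passed with SNa, none was higher and 2 were lower. Of 7 that passed with SKF, 1 was higher and 4 were lower. Lens markers (8 of 10) summed to 456, 18.2 and 13.5 rpm, and all 8 were lower in both treated pools. The part of these cell types in the member values was not tested.

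Set against the type I collagen chain *col1a1a* within each pool, some members differed by little. Other chains had other log2 ratios, 0.57 and 0.66 for *col1a2* and 0.67 and 0.90 for *col1a1b*. The ratios below therefore hold for *col1a1a* only, a chain chosen after its values were seen. *mmp2*, *timp2b*, *adam19a* and *mmp9* had log2 ratios of 0.68 to 0.70 with SNa, near the 0.72 of *col1a1a*. The median of all members was 0.42, so these examples do not stand for all members. *mmp2* had 0.0771 reads per *col1a1a* read in the control pool (0.0764 to 0.0778), 0.0749 in the SNa pool (0.0741 to 0.0758) and 0.0767 in the SKF pool. For *timp2b* the ratios were 0.0475, 0.0470 and 0.0465, and for *adam19a* they were 0.0335, 0.0329 and 0.0326. For *mmp9* they were 0.0294, 0.0289 and 0.0312. For *adam8a* the ratio was lower in the treated pools, with 0.111 in the control pool, 0.0899 in the SNa pool and 0.0901 in the SKF pool. Per *col1a1a* read *loxl1* was lower there too, with 0.00857, 0.00773 and 0.00799. Its own log2 ratios of 0.57 and 0.67 lay near those of *col1a2*. All members together had 0.314 reads per fibroblast marker read in the control pool, 0.280 in the SNa pool and 0.285 in the SKF pool. Per radial glia marker read they had 0.704, 1.75 and 1.85.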

How the data were processed

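Poly(A) RNA of 10 RGC cultures was sequenced as paired ends. The authors pooled the replicates, assembled the reads with Trinity, clustered contigs with CD-HIT and matched unigenes to chordate proteins with BLAST. Not given in the sources used here is the counting program. The deposited expression signal is 1 normalized count per group and unigene, pooled reads divided by a DESeq size factor. Percent identity to the best BLAST match was taken as deposited. The authors' fold and p columns were not used.

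Values were divided by the worth of 1 read, which gave whole reads for 100% of values within 0.01, and for 167448 of 167448 unigenes both tables gave the same control reads. Reads were summed per gene name. Intervals used reads divided by 2, since most values were even (74.8%, 79.7% and 78.0% in the control, SNa and SKF pools). A count of 0 allows 3 fragments, or 6 reads (0.0406, 0.0926 and 0.0692 rpm), for counting error only; no ratio of a name at 0 is printed. The planned edgeR test needs counts per culture, which were not analysed here. The steps were tested on simulated data.

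Members and lists were chosen with earlier results of these data known. Members named by rule were all *timp*, *lox* and *loxl* members, the 12 most abundant *mmp*, 8 *adam* and 8 *adamts* or *adamtsl* members, and the 8 highest and 8 lowest log2 ratios of each comparison with a mean of at least 50; the others were added so that every member is accounted for, and unigenes, genes of other lists and ratios within a pool were chosen after their values were seen. Alternatives were total reads, the median ratio of names, TMM factors (edgeR 4.0.16), the most abundant unigene, 80% identity, centring on stretches of 1000 unigene numbers, other minimums, a threshold of 1, leaving out unigenes read in 1 pool and, added after seeing the data, names from the protein name column. Python 3.11.15, numpy 2.4.6, pandas 2.3.3 and scipy 1.17.1 were used.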

Additional observations from a re-analysis of the deposited data

Results flagged for a closer look

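Some unigenes carried a member name only inside the protein name and had no entry for the gene name, so the rule passed them over. There were 26 such unigenes under 12 names, of which 4 were not among the 56 members. The signal of 3 of these lay past 0.5 on the log2 scale in 1 comparison with the controls. *adamts16* had 21.7 rpm in the control pool, 27.1 rpm in the SNa pool and 39.9 rpm in the SKF pool, and its log2 ratio with SKF was 0.87 (0.77 to 0.97). *mmp13b*, a collagenase, had 11.5, 18.7 and 16.1 rpm, and its log2 ratio with SNa was 0.69 (0.54 to 0.84). *mmp17b*, a membrane-type MMP, had 1.07, 1.67 and 1.096 rpm, and its log2 ratio with SNa was 0.63 (0.10 to 1.15). The fourth name, *adamts1*, had 44.7, 35.8 and 53.6 rpm and log2 ratios of -0.33 and 0.25. Of the 8 names that are also members, joining the reads turned the direction of *adamts6* with SNa from 0.51 to -0.49 and with SKF from -0.29 to 0.11. It moved *mmp17a* with SNa from 0.26 to 0.62, and for *loxl4* with SNa it moved -0.66 to -0.71 (-1.39 to -0.07). *adamts13* with SNa versus SKF turned from 0.25 to -0.08. The intervals cover counting error only.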

How the results depend on the processing

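No paired analysis was possible because each group has 1 pooled value, and for the same reason no culture could be left out and no replicate block fitted. Under a threshold of 1, the SNa comparison had 0 higher and 1 lower members instead of 17 and 6, the SKF comparison 3 and 1 instead of 25 and 2, and SNa versus SKF 0 and 1 instead of 1 and 7. The shares of all names were 2.02% and 5.72%, 3.17% and 5.16%, and 1.62% and 1.76% in the same order. A minimum of 100 left 2 of 42 members lower with SNa, beside 10.8% of all names. For SNa versus SKF it left 0 higher and 2 lower of 42, beside 0.688% and 1.63%. The medians of the stretches of unigene numbers ran from -0.96 to 1.40 with SNa and from -1.24 to 1.08 with SKF. Centring on these stretches gave 5 lower of 51 members with SKF, beside 14.7% of all names. For SNa versus SKF it gave 0 higher and 3 lower of 50, beside 4.89% and 6.96%. For SNa versus SKF, the most abundant unigene gave 0 higher of 48 members, beside 5.46% of all names. Leaving out unigenes read in 1 pool gave 2 of 50, beside 4.09%. The log2 ratio of *mmp17a* for SNa versus SKF was -0.66 and turned to 0.15 with centring, which moved 52 of 132 ratios of named members. Over all alternatives, 925 of these values were labelled the same, 118 moved and 1 reversed. The label of reversed does not cover every change of sign. Under TMM factors 0 values had this label, although members below 0 for SNa versus SKF went from 42 to 34 of 50. The median of all names went from -0.03 to 0.01 in that comparison. Causes were not tested. The scalings shifted ratios by at most 0.05. Members under about 1 rpm are limited by depth, and no value shows the spread between cultures.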
